A study of Homo sapiens with 8 samples.

Results

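The response of HCC4006 cells to diethyl maleate (DEM) was described across all expressed genes. HCC4006 is an established lung adenocarcinoma line that the labels give as carrying no *KEAP1* and no *NRF2* (*NFE2L2*) mutation, and it served as one of the NRF2-normal lines of the study. The series holds 8 RNA-seq libraries of HCC4006 and ABC1 cells, the latter another adenocarcinoma line with the same label, and 4 of the 8 are of HCC4006. Of these 4, 2 were from cells given 100 μM DEM and 2 from cells given the vehicle, DMSO, with RNA taken 16 h later. All cells were grown in low-glucose medium with 10% serum, and no transgene or gene deletion is described as introduced into any group. Each library was summarised by the authors as FPKM, fragments scaled by transcript length and by the number of mapped fragments, a level per length. Of 57815 gene identifiers, the 13542 that averaged 1 FPKM or more over the 4 HCC4006 libraries were tested, whatever their change. A log2 change below is the DEM mean minus the vehicle mean of log2(FPKM + 1), so it understates the change of genes with low levels, and each p comes from limma with Benjamini-Hochberg adjustment over the 13542 genes. Upregulated and downregulated refer to an adjusted p under 0.05. The duplicates are described as biological, but the labels do not say that they came from separate cultures, so the p-values measure the spread between these libraries. With 2 libraries against 2, an exact permutation test cannot give a p below 0.333, which is why the fit over all genes was used.

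DEM is an electrophile that conjugates with glutathione and modifies reactive cysteines of proteins, among them those of KEAP1, the adaptor that marks NRF2 for degradation. Freed from KEAP1, NRF2 pairs with small MAF proteins at antioxidant response elements and drives genes for glutathione and thioredoxin, for quinone and carbonyl reduction, for NADPH supply and for heme breakdown. A separate stress pathway, the integrated stress response, acts through kinases of the initiation factor eIF2 and the transcription factor ATF4, whose targets supply amino acids and charge tRNA. The heat shock response, driven by HSF1, supplies chaperones when proteins lose their fold.

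The 4 libraries were alike in the measures below, but FPKM are already scaled by mapped fragments, so their sums do not show sequencing depth. Their FPKM sums differed by at most 1.05-fold, between 13450 and 13573 genes reached 1 FPKM in each, and the duplicates correlated across genes with r = 0.988 with vehicle and 0.984 with DEM. The numbers of reads per library were not given, so no counting interval was computed. All 10 epithelial markers were above 1 FPKM, among them *EPCAM* at 234 and 255 FPKM with vehicle and 237 and 272 FPKM with DEM. Of 9 lung lineage markers 4 reached 1 FPKM, including *NKX2-1*, the lung lineage transcription factor, at 47.1 and 42.7 FPKM with vehicle and 44.9 and 42.4 FPKM with DEM, whereas the surfactant genes *SFTPA1*, *SFTPA2*, *SFTPB*, *SFTPC* and *SFTPD* stayed below 1 FPKM in every library. Markers of other cell types were low: the 4 endothelial markers summed to at most 0.584 FPKM, the 8 fibroblast markers to between 7.28 and 9.34 FPKM, and the leukocyte gene *PTPRC* reached at most 0.192 FPKM. Only *CD68*, a lysosomal protein, was high among the 7 leukocyte markers, at 102 and 91.2 FPKM with vehicle and 91.04 and 89.3 FPKM with DEM. The summed epithelial markers went from 5043 and 4834 FPKM with vehicle to 3895 and 3936 FPKM with DEM. Of them the keratins *KRT7*, *KRT8* and *KRT18* and the transcription factor *ELF3* fell, by 0.51, 0.46, 0.40 and 0.32 on the log2 scale, while the tight junction gene *CLDN4* rose by 0.51.

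DEM upregulated 1144 genes (8.45% of those tested) and downregulated 1447 (10.7%). Most changes were small: the median size was 0.57 on the log2 scale in the upregulated and 0.58 in the downregulated genes, against a median standard error of 0.118 over all genes. A change of at least 1 was reached by 135 upregulated and 161 downregulated genes, and one of at least 2 by 16 and 6 genes. The median over all tested genes was -0.03. Both DEM libraries lay above both vehicle libraries in 29.3% of the tested genes and below both in 35.3%, and every called gene was among these, so that for each gene said below to have risen or fallen the groups did not overlap. The share of genes called grew with the level, from 10.4% below 5 FPKM to 25.2% at 20 FPKM and above, while the standard error shrank from a median of 0.18 to one of 0.0851. Removing 1 library left between 206 calls (without DEM replicate 0) and 324 calls (without vehicle replicate 0) among upregulated genes, and between 255 (without vehicle replicate 1) and 366 (without DEM replicate 1) among downregulated genes. The calls that held without each of the 4 libraries in turn were 147 upregulated and 173 downregulated genes. By the deposited counts, 44 upregulated and 32 downregulated genes had a mean normalised count under 10, among them short RNAs and pseudogenes with some of the largest changes, and of these only *MT1A* is named below.

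**Figure D1:**
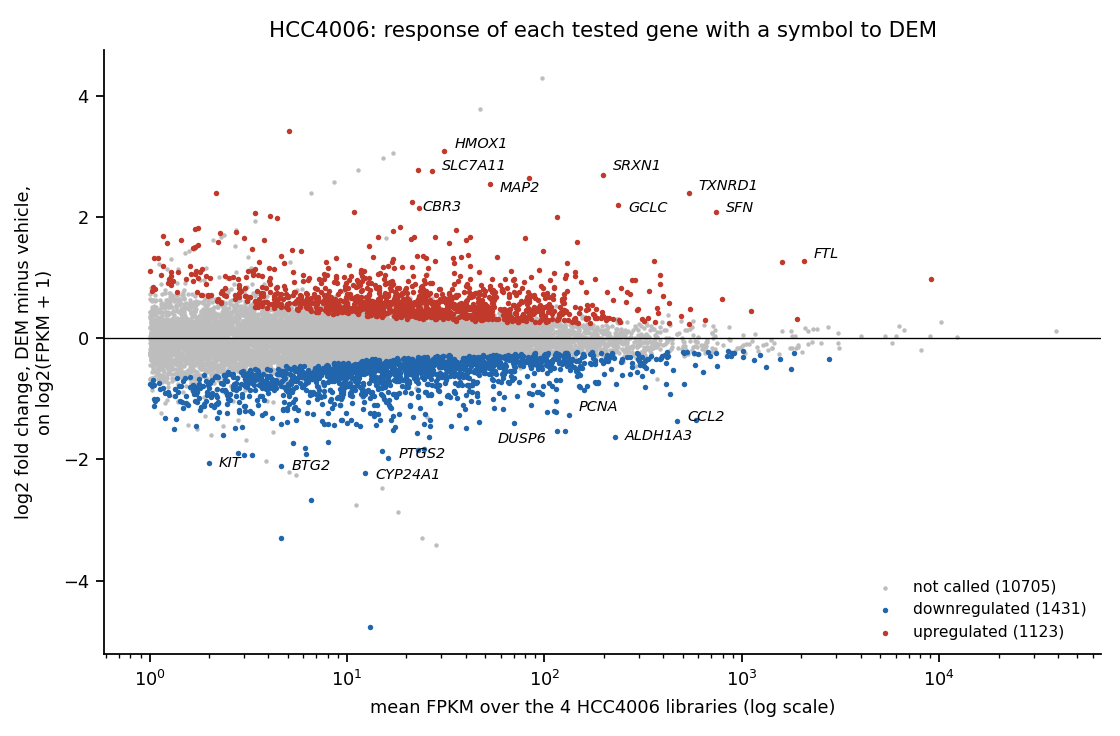
Each point is 1 of the tested genes that has a symbol, with its mean FPKM over the 4 HCC4006 libraries on a log axis and its log2 change on the vertical axis. Red marks upregulated genes, blue downregulated genes and grey genes not called. *HMOX1*, *SLC7A11* and *SRXN1* lie highest among the labelled upregulated genes, with log2 changes of 3.09, 2.76 and 2.70, and *CYP24A1*, *BTG2* and *KIT* lie lowest among the labelled downregulated genes, at -2.22, -2.10 and -2.05.

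Genes were grouped in 58 lists by function, and counts of called members below stand against 8.45% up and 10.7% down over all genes. The lists covered 1980 of the tested genes (14.6%), and they held 216 of the upregulated (18.9%) and 387 of the downregulated genes (26.7%). With all 4 libraries the lists with the highest medians were those of ABC transporters, carbonyl reduction, NRF2 with its partners, amino acid transport and glutathione, and those with the lowest were DNA replication, metallothioneins, nucleotide synthesis, mitosis and DNA repair.

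**Figure D2:**
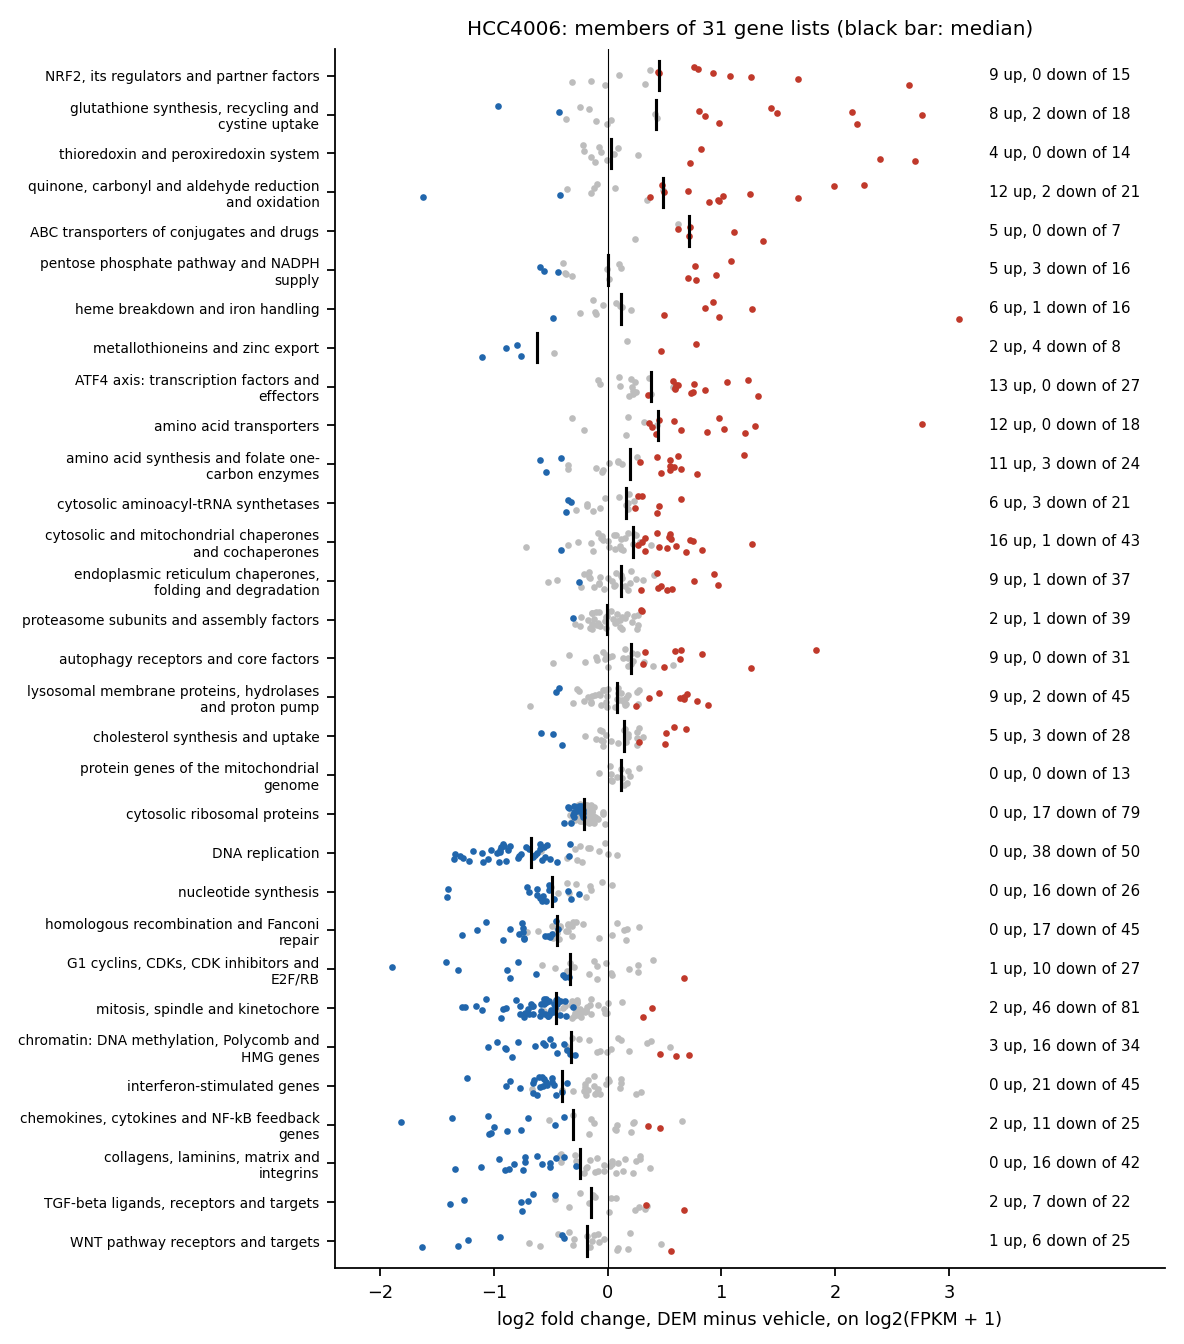
Each row is a gene list and each point a tested member, placed at its log2 change in HCC4006, with red for upregulated, blue for downregulated, grey for members not called and a black bar for the median. The lists of the antioxidant and amino acid programs extend to the right, up to 3.09 for *HMOX1*, and those of DNA replication, nucleotide synthesis, repair and mitosis lie mostly to the left of 0.

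Cystine uptake, the limiting step of glutathione synthesis and glutathione recycling all rose. *SLC7A11*, the cystine importer, stood at 6.02 and 6.33 FPKM with vehicle and 48.1 and 47.1 FPKM with DEM. Both DEM libraries were far above both vehicle libraries, and the log2 change was 2.76 (SE 0.09, adjusted p = 0.000127, limma). *GCLC*, the catalytic subunit of the enzyme that limits glutathione synthesis, went from 83.99 and 83.1 FPKM to 387 and 386 FPKM, a log2 change of 2.20 (SE 0.06, adjusted p = 8.78e-05, limma). Its modifier subunit *GCLM* went from 8.13 and 7.72 to 37.2 and 39.8 FPKM and glutathione reductase, *GSR*, from 52.8 and 51.8 to 142 and 145 FPKM, with log2 changes of 2.15 and 1.44. *GSS*, which completes the synthesis, was not called, at 0.03 (95% interval -0.22 to 0.27). In the whole list 8 of 18 tested members rose and 2 fell, with a median of 0.42, and 7 of the 8 held without each library in turn. Glutathione peroxidases went both ways: *GPX2* rose from 0.371 and 0.403 to 3.40 and 2.43 FPKM, whereas *GPX1*, the abundant cytosolic form, fell from 83.4 and 82.4 to 40.8 and 43.1 FPKM, a log2 change of -0.97 (SE 0.07, adjusted p = 0.00163, limma). Of the glutathione transferases, which attach glutathione to electrophiles, 1 of 15 rose (6.67%, against 8.45% of all genes), the microsomal *MGST1* (0.48). None was called down. In the thioredoxin list 4 of 14 members rose and none fell. *SRXN1*, which repairs oxidised peroxiredoxins, went from 50.8 and 53.6 to 335 and 355 FPKM, a log2 change of 2.70 (SE 0.07, adjusted p = 8.78e-05, limma). *TXNRD1*, the cytosolic thioredoxin reductase, went from 167 and 174 to 865 and 943 FPKM (2.40). Thioredoxin itself, *TXN*, and *PRDX1*, a peroxiredoxin, rose less, by 0.72 and 0.82.

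The antioxidant response element was looked for as TGACNNNGC, on both strands, from 250 bases before to 50 bases after the gene start in RefSeq promoters of GRCh38.p14, which were found for 10042 tested genes. It can contain the AP-1 site TGACTCA, and none of the motifs searched here contains another. It was present in 15.2% of all these promoters, in 20% of those of upregulated and in 13.5% of those of downregulated genes. Among the lists of this response the share ran from 7.14% of 14 heme and iron promoters through 11.8% of 17 for carbonyl and quinone reduction, 15.4% of 13 for NRF2 with its partners, 18.2% of 11 for thioredoxin, 20% of 15 for NADPH supply and 23.1% of 13 for glutathione to 40% of 5 for ABC transporters, so some of these lists lay below the share of all promoters. Among the other lists the element was in 38.7% of 31 lysosomal promoters and in 75% of 4 promoters of the metallothionein list. The windows of upregulated genes were richer in GC, with a median of 67.7% against 65.7% over all tested and 62.8% in downregulated genes. The promoters of 4 upregulated members that hold the element before the start are shown. They were taken in order of the size of the change, leaving out ABC transporters and the genes of a single chromosome. They cover thioredoxin reduction, glutathione synthesis, peroxide removal and NADPH supply. Each is read 5′ to 3′ on the strand of its gene, and the capitals mark the element, which faces the other way in *GCLM* and *GPX2*. They lie at chr12:104215655-104215713 (plus strand, *TXNRD1*), chr1:93909431-93909489 (minus strand, *GCLM*), chr14:64942834-64942892 (minus strand, *GPX2*) and chr6:83431155-83431213 (minus strand, *ME1*).
TXNRD1: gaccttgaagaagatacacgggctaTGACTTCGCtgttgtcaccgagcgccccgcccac
GCLM: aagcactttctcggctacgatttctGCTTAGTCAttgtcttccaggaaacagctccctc
GPX2: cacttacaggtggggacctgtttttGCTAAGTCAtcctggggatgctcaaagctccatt
ME1: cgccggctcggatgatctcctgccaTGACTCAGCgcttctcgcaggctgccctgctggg
A match describes these letters only, not binding.

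In the list of quinone, carbonyl and aldehyde enzymes 12 of 21 members rose and 2 fell (median 0.49), and 8 of the 12 held without each library. *CBR3*, a carbonyl reductase, went from 6.21 and 7.32 to 34.7 and 37.3 FPKM, a log2 change of 2.25 (SE 0.11, adjusted p = 0.000524, limma). *AKR1B10*, an aldo-keto reductase acting on aldehydes, went from 6.40 and 6.24 to 21.6 and 23.01 FPKM (1.67). Against the direction of the list, *ALDH1A3*, which makes retinoic acid from retinal, fell from 344 and 342 to 109 and 112 FPKM, a log2 change of -1.63 (SE 0.06, adjusted p = 0.000253, limma). *HMOX1*, heme oxygenase 1 (ENSG00000100292.12, chr22:35776354-35790207 on GRCh37, plus strand), went from 5.59 and 5.89 to 57.4 and 55.4 FPKM, a log2 change of 3.09 (SE 0.09, adjusted p = 8.78e-05, limma). *BLVRB*, biliverdin reductase B, rose by 0.93. The ferritin chains *FTL* and *FTH1*, which store the iron, were already among the most abundant transcripts and rose from 1238 and 1176 to 2873 and 2949 FPKM and from 6444 and 5778 to 13032 and 11157 FPKM. Both have processed pseudogenes that could share their reads. Altogether 6 of 16 heme and iron genes rose and 1 fell.

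NADPH supply split within its list: 5 of 16 members rose, 3 fell and the median was 0.0038. Among the risers were malic enzyme *ME1* (1.08) and *PGD*, *TALDO1* and *TKT* of the pentose phosphate pathway (0.95, 0.77 and 0.70), and 4 of the 5 held without each library. The members that fell were *MTHFD1*, a folate enzyme (-0.59), *RPE* of the pentose phosphate pathway (-0.56) and the mitochondrial *IDH2* (-0.43). Among ABC transporters 5 of 7 tested members rose and none fell, led by *ABCB6*, a porphyrin transporter (1.36), and *ABCC5*, a nucleotide and conjugate exporter (1.11).

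The NRF2 circuit itself moved at several points, with 9 of 15 members upregulated and none downregulated (median 0.45). *NFE2L2* stood at 80.8 and 73.8 FPKM with vehicle and 108 and 104 FPKM with DEM, a small rise of 0.45 (SE 0.08, adjusted p = 0.0147, limma). This call was lost without each of the 4 libraries. *KEAP1* rose from 44.3 and 43.7 to 72.1 and 82.5 FPKM, a log2 change of 0.80 (SE 0.09, adjusted p = 0.00483, limma), while *CUL3* and *RBX1*, the other subunits of its ubiquitin ligase, were not called, at 0.10 and -0.32. All 3 small MAF genes rose, *MAFG* by 1.67, *MAFK* by 0.76 and *MAFF* by 0.44. The *MAFF* call was the weakest of the 3 (adjusted p = 0.0378, limma) and was made in 4 of 11 alternatives. *OSGIN1*, an oxidative stress growth inhibitor, went from 22.9 and 21.4 to 157 and 133 FPKM (2.65), and *SQSTM1*, the autophagy receptor p62, which binds KEAP1, from 965 and 924 to 2242 and 2273 FPKM (1.26). The lists of glutathione, thioredoxin, carbonyls, ABC transporters, NADPH, heme and the NRF2 circuit together held 107 tested genes, of which 49 rose (45.8%, against 8.45% of all genes) and 8 fell, with a median of 0.37.

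Metallothioneins, small cysteine-rich proteins that bind zinc and copper, fell where they were called. In the list with their regulators 4 of 8 members fell and 2 rose (median -0.62). *MT2A*, the most abundant of them, went from 646 and 631 FPKM with vehicle to 357 and 395 FPKM with DEM, a log2 change of -0.76 (SE 0.07, adjusted p = 0.00302, limma). *MT1X*, *MT1E* and *MT1A* fell as well, by 0.89, 0.80 and 1.105. The metal-responsive transcription factor *MTF1* and the zinc exporter *SLC30A1* of the same list rose, by 0.47 and 0.78. Metallothionein transcripts are near-identical, so how reads were divided among them is uncertain. The metal response element was searched as TGCACNC. It was in 11.2% of all promoters, 10.2% of those of upregulated and 11.9% of those of downregulated genes. In this list it was in 3 of the 4 promoters found (75%), and the antioxidant response element was also in 3 of the 4 (75%).

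Transcripts of the ATF4 axis rose together with amino acid transporters. *ATF4* itself went from 188 and 202 FPKM to 339 and 322 FPKM, with a log2 change of 0.76 (SE 0.07, adjusted p = 0.00285, limma). *ATF3*, a stress-induced partner of ATF4, stood at 14.8 and 13.01 FPKM with vehicle and 35.8 and 36.7 FPKM with DEM, *DDIT3* (CHOP) at 19.4 and 21.1 and 48.4 and 49.6 FPKM, and *TRIB3*, a pseudokinase that restrains ATF4 signalling, at 84.3 and 82.01 and 171 and 175 FPKM. Both DEM libraries of each were well above both vehicle libraries, and the log2 changes were 1.33, 1.24 and 1.05. *CHAC1*, which degrades glutathione, rose by 0.85, and the transcription factor *CEBPB* by 0.74. In the list 13 of 27 members rose and none fell (median 0.38), and 5 of the 13 held without each library. The transcripts of the 4 eIF2 kinases were not called, with log2 changes from -0.07 for *EIF2AK1* to 0.22 for *EIF2AK2*.

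Among amino acid transporters 12 of 18 rose and none fell (median 0.44). Besides *SLC7A11*, described above, *SLC6A6*, the taurine transporter, went from 9.52 and 9.43 to 25.05 and 24.5 FPKM (1.30). The large neutral transporter *SLC7A5* went from 96.4 and 92.2 to 197 and 188 FPKM (1.02), its heavy chain *SLC3A2*, shared with SLC7A11, rose by 0.98, and the glycine transporter *SLC6A9* by 1.21. Of 24 enzymes of amino acid and folate one-carbon synthesis 11 rose and 3 fell. *CTH*, which makes cysteine by transsulfuration, went from 9.50 and 9.23 to 22.00 and 23.5 FPKM, a log2 change of 1.20 (SE 0.09, adjusted p = 0.00187, limma). Asparagine synthetase, *ASNS*, went from 41.5 and 47.8 to 74.7 and 80.2 FPKM, a log2 change of 0.78 (SE 0.09, adjusted p = 0.00614, limma). The serine enzymes were unequal: *PSAT1* and *MTHFD2* rose by 0.64 and 0.62, while *PHGDH*, the first enzyme of serine synthesis, and *SHMT2* were not called, at 0.09 (95% interval -0.10 to 0.27) and -0.05 (-0.21 to 0.11). Cytosolic tRNA synthetases gave 6 upregulated members of 21 (28.6%), led by *GARS1* (0.65), and 3 downregulated (14.3%). Of 17 mitochondrial ones 3 fell (17.6%) and none was called up. Over all genes 8.45% rose and 10.7% fell.

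The amino acid response element, at which ATF4 binds, was searched as TGATGNAA. It was in 1.64% of all promoters, in 2.16% of those of upregulated and 2.32% of those of downregulated genes. In the lists it was in 6 of 16 promoters of cytosolic tRNA synthetases (37.5%), in 26.7% of those of amino acid synthesis, 18.8% of those of amino acid transport and 13.6% of those of the ATF4 axis. The following 4 belong to upregulated genes of 3 of these lists that hold the element before the start. They too were taken in order of the size of the change, with the same chromosome left out. They lie at chr1:212565191-212565248 (plus strand, *ATF3*), chr15:40953237-40953294 (plus strand, *CHAC1*), chr7:97872444-97872501 (minus strand, *ASNS*) and chr16:70289661-70289718 (minus strand, *AARS1*), on the strand of the gene and with the element in capitals.
ATF3: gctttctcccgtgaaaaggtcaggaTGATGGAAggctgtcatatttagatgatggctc
CHAC1: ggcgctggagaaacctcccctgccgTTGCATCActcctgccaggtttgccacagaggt
ASNS: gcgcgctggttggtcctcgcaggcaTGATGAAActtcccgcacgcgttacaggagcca
AARS1: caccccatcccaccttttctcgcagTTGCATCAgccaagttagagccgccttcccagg
*AARS1*, the alanyl-tRNA synthetase, rose by 0.43.

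Of 43 chaperone genes 16 rose and 1 fell (median 0.22), and 2 of the 16 held without each library. *HSPB8*, a small heat shock protein, went from 15.2 and 16.6 to 38.5 and 40.97 FPKM, a log2 change of 1.27 (SE 0.09, adjusted p = 0.0016, limma), and *BAG3*, its partner in chaperone-assisted autophagy, from 63.9 and 58.4 to 108 and 99.6 FPKM (0.75). The stress-induced HSP70 genes *HSPA1A*, *HSPA1B* and *HSPA6* rose by 0.69, 0.72 and 0.83, although the first pair is nearly identical in sequence and its reads cannot be split with certainty. The constitutive *HSP90AB1* was not called, at 0.07, and the collagen chaperone *SERPINH1* fell by 0.41. The heat shock element, searched as GAANNTTC, was in 11 of 38 promoters of the list (28.9%), against 4.43% of all promoters.

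In the endoplasmic reticulum 9 of 37 members rose and 1 fell. *DNAJB9*, a cochaperone of degradation, rose from 23.2 and 26.4 to 50.6 and 45.9 FPKM (0.94) and *HERPUD1*, also in degradation, by 0.76. The central chaperone of this compartment, *HSPA5* (BiP), was not called, with a log2 change of 0.17 (95% interval 0.03 to 0.32). The proteasome list stayed near 0, with 2 of 39 subunits up, 1 down and a median of -0.00249. Autophagy genes gave 9 of 31 upregulated and none downregulated (median 0.20). *GABARAPL1*, an ATG8 protein of the autophagosome, went from 7.85 and 7.25 to 28.5 and 30.6 FPKM, a log2 change of 1.84 (SE 0.10, adjusted p = 0.000677, limma), and the ATG8 gene *MAP1LC3B* rose by 0.83. Among lysosomal genes 9 of 45 rose and 2 fell. These included the transcription factors *TFE3* and *TFEB*, which drive lysosomal genes, with 0.78 and 0.70, the hydrolase *GLA* with 0.88 and the protease *CTSL* with 0.67.

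**Figure D3:**
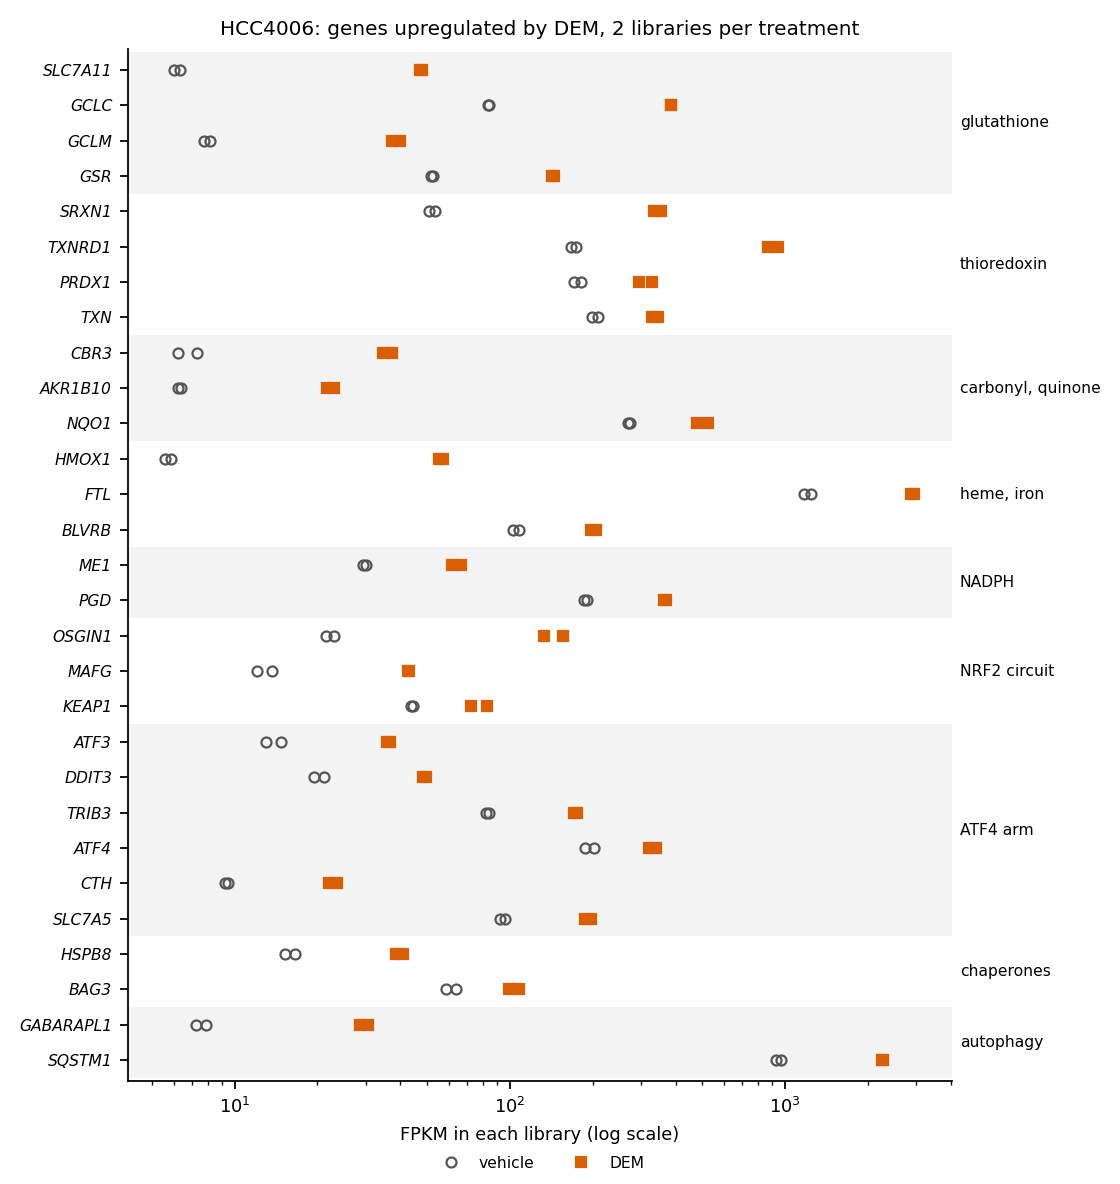
FPKM of upregulated genes in each of the 4 HCC4006 libraries on a log axis, open circles for vehicle and filled squares for DEM, grouped by function. In every row the DEM libraries lie to the right of the vehicle libraries, as for *FTL*, at 2873 and 2949 FPKM with DEM, and *CBR3*, at 34.7 and 37.3 FPKM.

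DNA replication genes had a median log2 change of -0.67 against -0.03 over all genes, with 38 of its 50 tested members down and none up. In bulk libraries, fewer cells in S phase and less RNA of these genes per cell cannot be told apart. Of the 38, 17 held without each library in turn. *PCNA*, the sliding clamp of the polymerases (ENSG00000132646.6, chr20:5095599-5107272 on GRCh37, minus strand), stood at 183 and 192 FPKM with vehicle and 73.6 and 80.9 FPKM with DEM. Both DEM libraries were far below both vehicle libraries, with a log2 change of -1.27 (SE 0.08, adjusted p = 0.000967, limma). *PRIM1*, the primase, went from 22.2 and 27.02 to 8.41 and 9.55 FPKM, a log2 change of -1.36 (SE 0.13, adjusted p = 0.00325, limma), *CLSPN*, a checkpoint adaptor at the fork, from 14.9 and 16.2 to 5.73 and 5.30 FPKM (-1.34), and *MCM10*, an initiation factor, fell by 1.30.

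Grouped by complex, a division made after the values were seen, all 6 subunits of the MCM2-7 helicase fell, from -1.22 for *MCM7* to -0.79 for *MCM4*. The 5 genes of GINS and *CDC45*, which complete the helicase, all fell (median -0.88), as did the 4 of polymerase alpha and primase (median -0.77). In the clamp loader, replication factor C, 4 of 5 fell and *RFC1* was not called, at -0.25. The origin recognition complex stood apart from these: of its 6 subunits 1 fell, *ORC1* (-0.63), and the others had values up to 0.08 for *ORC4*.

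Nucleotide synthesis followed, with 16 of 26 members down and none up (median -0.49), of which 13 were called with libraries scaled by the median of ratios. *TYMS*, which makes thymidylate, went from 36.5 and 35.5 to 11.5 and 14.3 FPKM, a log2 change of -1.42 (SE 0.12, adjusted p = 0.00218, limma). *RRM2*, the regulated subunit of ribonucleotide reductase, went from 106 and 97.3 to 37.7 and 37.9 FPKM (-1.40). In the list of G1 regulators 10 of 27 fell (9 after that scaling) and 1 rose. Over the alternatives its median, -0.33 as reported, ran from -0.36 to -0.14. *E2F8*, an E2F repressor expressed in S phase, went from 3.76 and 6.25 to 0.602 and 0.555 FPKM, *CCNE2* (cyclin E2) fell by 1.42, *SKP2*, the ligase subunit that degrades p27, by 1.32 and *E2F1* by 0.63. The member that rose was *MYC*, from 25.2 and 22.2 to 40.1 and 36.2 FPKM, a log2 change of 0.67 (SE 0.10, adjusted p = 0.0111, limma). Cyclin D1, *CCND1*, was not called, at -0.10 (95% interval -0.30 to 0.11).

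E2F factors control many of these genes. Their site, searched as TTTCGCGC, TTTGGCGC or TTTCCCGC, was in 19 of 43 promoters of replication genes (44.2%) and in 23.8% of those of G1 regulators, against 4.67% of all promoters, 7.58% of those of downregulated and 3.53% of those of upregulated genes. The promoters below belong to the genes for thymidylate, the clamp and the helicase whose values are given above, at chr18:657589-657646 (plus strand, *TYMS*), chr20:5126649-5126706 (minus strand, *PCNA*), chr7:100101398-100101431 (minus strand, *MCM7*) and chr2:135876497-135876554 (minus strand, *MCM6*), with the site in capitals on the strand of the gene. The stretch of *MCM7* ends at the gene start. The searched window of *MCM7* holds at least 2 such sites and that of *MCM6* at least 4, of which 1 is shown for each.
TYMS: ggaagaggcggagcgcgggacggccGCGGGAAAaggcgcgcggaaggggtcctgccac
PCNA: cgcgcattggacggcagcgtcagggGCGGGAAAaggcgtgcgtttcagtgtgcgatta
MCM7: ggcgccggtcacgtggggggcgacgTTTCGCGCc
MCM6: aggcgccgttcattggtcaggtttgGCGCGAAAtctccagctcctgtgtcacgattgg
*MCM6* fell by 1.102 on the log2 scale.

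Homologous recombination and Fanconi genes gave 17 of 45 downregulated and none upregulated (median -0.44), with 15 down after scaling by the median of ratios. Among them *EXO1*, a repair exonuclease, fell by 1.29, *FANCI*, of the Fanconi pathway, by 1.15 and *BRCA1* by 0.92. In the mitosis list 46 of 81 members fell and 2 rose (median -0.46), with 39 down after scaling by the median of ratios and 8 holding without each library. *TOP2A*, topoisomerase II alpha, went from 56.7 and 53.7 to 22.7 and 25.5 FPKM (-1.16), the kinetochore gene *SPC24* fell by 1.28, the condensin gene *NCAPH* by 1.26 and the kinase *AURKB* by 1.11. Mitotic genes were uneven. *MKI67*, the proliferation marker Ki-67, stood at 32.3 and 32.6 FPKM with vehicle and 30.6 and 26.1 FPKM with DEM and was not called, at -0.19 (95% interval -0.43 to 0.05). The kinases *PLK1* and *AURKA* were not called either, at -0.18 and 0.13, while the phosphatase *CDC25B* and the spindle gene *HMMR* rose by 0.39 and 0.31. These 2 rises were called in only 5 and 4 of 11 alternatives. The cell cycle homology region of late cell cycle genes, searched as TTTGAAA, was in 19 of 69 promoters of the mitosis list (27.5%), against 3.5% of all promoters.

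Chromatin genes gave 16 of 34 down and 3 up (median -0.32), with *HELLS*, a remodeller of replicating chromatin, at -1.06, the maintenance methyltransferase *DNMT1* at -0.84, the lamin *LMNB1* at -0.90 and the Polycomb enzyme *EZH2* at -0.57. The 5 lists of replication, nucleotides, repair, G1 and mitosis together held 229 tested genes, of which 127 fell (55.5%, against 10.7% of all genes) and 3 rose.

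*CDKN1A* (p21), an inhibitor of cyclin-dependent kinases, stood at 76.4 and 84.2 FPKM with vehicle and 83.7 and 79.95 FPKM with DEM. The groups overlapped and the log2 change was 0.03 (95% interval -0.16 to 0.22). *BTG2*, an antiproliferative gene, fell from 8.72 and 7.54 to 0.833 and 1.46 FPKM, a log2 change of -2.10 (SE 0.19, adjusted p = 0.00279, limma). *BBC3* (PUMA), a death-promoting BCL2 family gene, and *MDM2*, a ubiquitin ligase, fell by 1.38 and 0.89, and *PMAIP1* (NOXA) and the stress cytokine *GDF15* rose by 0.59 and 0.59. In the BCL2 family list 4 of 23 rose (17.4%, against 8.45% of all genes) and 2 fell (8.7%, against 10.7%).

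**Figure D4:**
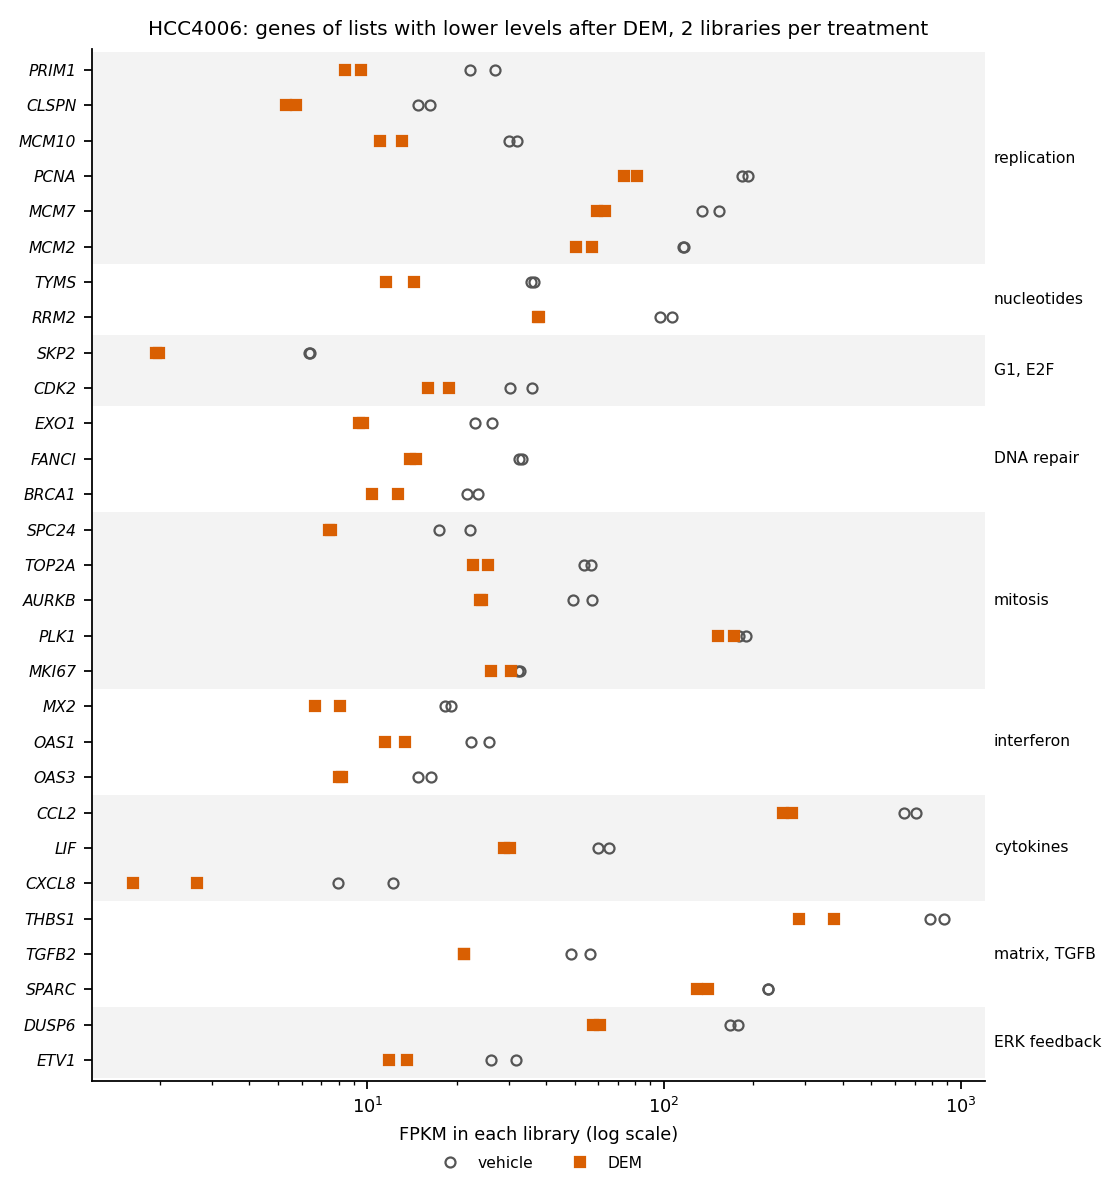
FPKM of genes from the lists with lower levels after DEM in each of the 4 HCC4006 libraries on a log axis, open circles for vehicle and filled squares for DEM, grouped by function. The DEM libraries lie to the left of the vehicle libraries, as for *PCNA* with 183 and 192 FPKM against 73.6 and 80.9 FPKM and *DUSP6* with 178 and 167 against 60.7 and 57.6 FPKM, and the gaps of *PLK1* and *MKI67*, which were not called, are small.

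Of 45 interferon-stimulated genes 21 fell and none rose (median -0.40), but only 1 of the 21 held without each library in turn. *MX2*, an antiviral GTPase, stood at 18.3 and 19.1 FPKM with vehicle and 6.67 and 8.09 FPKM with DEM, a log2 change of -1.24 (SE 0.12, adjusted p = 0.00331, limma). All 4 synthetases of the antiviral 2-5A pathway fell, between -0.90 for *OAS1* and -0.66 for *OAS2*. The DNA sensor *IFI16* was not called, at -0.00 (95% interval -0.18 to 0.18). The immunoproteasome subunits *PSMB9* and *PSMB8*, in the list of antigen presentation, fell by 0.89 and 0.63, while *NLRC5*, a regulator of MHC class I genes, rose by 0.63. In that list 3 of 20 fell (15%, against 10.7% of all genes) and 1 rose (5%, against 8.45%).

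Cytokine and NF-kB genes gave 11 of 25 down and 2 up (median -0.31). *CCL2*, a monocyte chemokine, stood at 708 and 646 FPKM with vehicle and fell to 271 and 253 FPKM with DEM, a log2 change of -1.37 (SE 0.07, adjusted p = 0.000707, limma). The neutrophil chemokine *CXCL8* went from 7.99 and 12.2 to 2.66 and 1.62 FPKM (-1.82). The cytokines *LIF* and *IL6* fell by 1.06 and 1.03, and *NFKB2*, an NF-kB subunit, rose by 0.35. *PTGS2* (COX-2), which makes prostaglandins, and the prostaglandin transporter *SLCO2A1* fell as well, from 24.8 and 27.99 to 6.03 and 5.91 FPKM and from 202 and 177 to 70.2 and 59.3 FPKM, with log2 changes of -1.97 and -1.54. *CX3CL1*, a membrane-bound chemokine, went from 10.3 and 10.4 to 1.82 and 2.23 FPKM (-1.91) and the death ligand *TNFSF10* (TRAIL) fell by 1.35.

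No gene of matrix and integrins rose, and 16 of 42 fell (median -0.24). *THBS1*, a matrix protein that activates TGF-beta, went from 881 and 786 to 375 and 286 FPKM (-1.34). The basement membrane collagen *COL4A1*, the integrin *ITGA2* and *SPARC* fell by 0.87, 0.90 and 0.73. In the TGF-beta list 7 of 22 fell (31.8%) and 2 rose (9.09%), the rises near the 8.45% of all genes. The ligand *TGFB2* went from 48.5 and 56.3 to 21.2 and 21.2 FPKM, a log2 change of -1.26 (SE 0.10, adjusted p = 0.00179, limma). Of mesenchymal genes 7 of 16 fell (43.8%) and 2 rose (12.5%). Of epithelial genes 5 of 31 fell (16.1%) and 3 rose (9.68%), not far from the 10.7% and 8.45% of all genes. The YAP targets *ANKRD1*, *CCN2* and *CCN1* fell by 1.20, 0.96 and 0.70, in a list with 7 of 30 down and 1 up. In the WNT list 6 of 25 fell and 1 rose. *DKK1*, a secreted inhibitor, went from 40.6 and 38.8 to 10.96 and 13.3 FPKM (-1.64) and the receptor *LGR5* fell by 1.31. NOTCH genes gave 1 of 14 up, the receptor *NOTCH1* (0.75), and 2 down, shares of 7.14% and 14.3% that lie near the 8.45% and 10.7% of all genes.

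The feedback genes of ERK signalling split evenly, with 5 of 21 up and 5 down. *DUSP6*, a phosphatase of ERK, went from 178 and 167 to 60.7 and 57.6 FPKM, a log2 change of -1.53 (SE 0.07, adjusted p = 0.000524, limma), and the ETS factor *ETV1* fell by 1.12. The phosphatase genes *DUSP5* and *DUSP1* rose instead, by 1.17 and 0.87. AP-1 and immediate early genes gave 7 of 29 up, among them *FOSL1* (0.999) and *EGR1* (0.82), and 4 down, among them *JUNB* (-0.63). The receptor *EGFR* was not called, at 0.12 (95% interval -0.12 to 0.36), and its inhibitor *ERRFI1* rose by 0.82, 1 of 2 upregulated genes among 9 of the EGFR list.

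Of 41 cytoskeletal genes 10 fell (24.4%, against 10.7% of all genes) and 2 rose (4.88%, against 8.45%). Among 9 tubulin genes 8 fell, with *TUBB3* lowest at -0.95, though tubulin genes are alike enough to share reads. *ACTB* was not called, at -0.08. Of 12 lung lineage genes 5 fell, led by the phosphate transporter *SLC34A2* of alveolar type II cells (-1.21) and the water channel *AQP3* (-1.17), and 1 rose, the transcription factor *FOXA2* (0.67). In the circadian list 3 of 21 rose and 3 fell, 14.3% each against 8.45% and 10.7% of all genes, with *BMAL1*, the activator of the clock, going from 24.9 and 25.6 to 57.4 and 60.6 FPKM (1.19) and the repressor *PER2* falling by 0.93.

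Ribosomal protein genes moved little but in one direction. All 79 had a log2 change below 0 (78 after scaling by the median of ratios), with a median of -0.21. The call was passed by 17 of them (8 after that scaling) and none rose. *RPL3* may serve as an example, at 366 and 369.7 FPKM with vehicle and 271 and 309 FPKM with DEM, a log2 change of -0.35 (SE 0.08, adjusted p = 0.0332, limma). Mitochondrial ribosomal genes gave 23 of 76 down and none up (median -0.20). In ribosome biogenesis 20 of 49 fell and none rose (median -0.27), among them *NOLC1*, a nucleolar phosphoprotein (-0.62), and *TCOF1*, which acts in ribosomal RNA transcription (-0.67). Splicing genes gave 18 of 42 down and none up, with *HNRNPA1* and *SRSF2*, a pair of splicing regulators, falling by 0.62 and 0.59. Without each library in turn, none of the 17 ribosomal, 23 mitochondrial ribosomal and 20 biogenesis calls held every time, and 2 of the 18 splicing calls did. Of snoRNA host genes and long noncoding RNAs 1 of 27 rose (3.7%), *MALAT1* (0.64), and 2 fell (7.41%), below the 8.45% and 10.7% of all genes.

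Energy metabolism changed at few points. None of 13 protein genes of the mitochondrial genome and none of 34 nuclear genes of respiratory complexes III to V was called, and in complex I 1 of 37 rose and 1 fell, counts below the 8.45% and 10.7% of all genes. Glycolysis gave 2 of 22 up (9.09%) and 3 down (13.6%), near the shares of all genes. *PFKFB3* (-0.65), which makes an activator of phosphofructokinase, led the 3 that fell. The citric acid cycle gave 2 of 23 up and 2 down (8.7% each), also near those shares. Hypoxia targets gave 4 of 26 up (15.4%) and 2 down (7.69%). In cholesterol synthesis and uptake 5 of 28 rose (17.9%), among them the enzyme *MSMO1* (0.51), and 3 fell (10.7%). Of fatty acid genes 3 of 19 rose (15.8%) and 1 fell (5.26%), *SREBF1*, the transcription factor of lipid synthesis (-0.78). The sterol response element, TCACCCCAC, was in 0.388% of all promoters. Genes of the aryl hydrocarbon receptor pathway gave 2 of 7 up, among them *CYP1A1* (0.52), and zinc finger genes with a ZNF number 22 of 387 up and 17 down, both shares below those of all genes. *GAPDH* was not called, at -0.06.

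Several of the largest changes were in genes of none of these groups. *SFN* (14-3-3 sigma, chr1:27189640-27190947 on GRCh37, plus strand), an epithelial adaptor that can arrest the cell cycle, stood at 292 and 273 FPKM with vehicle and 1271 and 1123 FPKM with DEM. The DEM mean was 4.24 times the vehicle mean and the log2 change was 2.08 (SE 0.08, adjusted p = 0.000285, limma). *MAP2*, a microtubule-associated protein best known from neurons, went from 14.8 and 14.8 to 90.00 and 91.3 FPKM (2.54). The cytochrome P450 gene *CYP4F11* and *PIR* (pirin), a nuclear iron protein, rose by 2.01 and 1.67. *UPP1*, uridine phosphorylase, went from 74.9 and 70.2 to 209 and 230.3 FPKM (1.58). *UGDH*, which makes UDP-glucuronate for conjugation, and *PPIF* (cyclophilin D) of the mitochondrial permeability pore rose by 1.28 and 1.24.

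Among downregulated genes *CYP24A1*, which degrades active vitamin D (chr20:52769985-52790525 on GRCh37, minus strand), went from 20.9 and 21.1 to 3.81 and 3.64 FPKM, a log2 change of -2.22 (SE 0.10, adjusted p = 0.000523, limma). The receptor tyrosine kinase *KIT* went from 3.79 and 3.85 FPKM to 0.0684 and 0.264 FPKM (-2.05). *SOX4*, a transcription factor of progenitor cells, went from 39.8 and 37.6 to 9.94 and 10.5 FPKM (-1.82). The nuclear protease gene *FAM111B* fell by 1.86, *SPTSSB*, a subunit of the enzyme that starts sphingolipid synthesis, by 1.85 and the hyaluronan synthase *HAS3* by 1.36. Of the genes named, *UPP1*, *UGDH*, *PPIF*, *PIR*, *HAS3*, *SLCO2A1*, *TNFSF10*, *GSS*, *PHGDH*, *CEBPB*, *E2F1*, *EZH2*, *AURKA*, *MCM6* and the end points given for complexes fell outside the rule for named genes and were chosen after their values were seen. At the expression minimum, *HPDL* and *CCZ1P1* lay just inside and *CEBPA* and *SYP* just outside, with means of 1.0014, 1.0029, 0.9995 and 0.9988 FPKM over the 4 libraries.

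The DEM response of HCC4006 was compared with that of ABC1 by an interaction term in a limma model of all 8 libraries, over 13682 genes that averaged 1 FPKM or more. The difference passed for 87 genes (0.636%), of which 62 were also called in HCC4006, 29 upregulated and 33 downregulated. This count was sensitive to single libraries: between 3 (without HCC4006 vehicle replicate 1) and 36 (without ABC1 DEM replicate 1) passed when 1 was left out, and 20 passed with a pseudocount of 0.1. A gene hardly expressed in ABC1 has little room to fall there, and the ABC1 mean was under 1 FPKM for 22 of the 33 downregulated genes and for 7 of the 29 upregulated genes.

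With expression in both lines, *BMAL1* rose in HCC4006 and was at -0.49 in ABC1, a difference of 1.69 (SE 0.13, adjusted p = 0.0112, limma), and it passed in 10 of 12 alternatives. *SFN*, at 52.7 to 70.5 FPKM in ABC1, had a log2 change of 0.02 there and differed by 2.06 (SE 0.23, adjusted p = 0.0209, limma) (6 of 12). *SLC6A6* and *SDCBP2*, the latter a syntenin-like adaptor that rose by 1.62 in HCC4006, differed by 1.49 and 1.82, with ABC1 changes of -0.20 and -0.20. *MAP2* had ABC1 changes in the same direction (1.16) but larger ones in HCC4006, by 1.38 (SE 0.16, adjusted p = 0.0209, limma). The microtubule-binding ligase *MID1* differed by 1.44, with 0.87 in HCC4006 and -0.57 in ABC1.

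In the other direction *FHL2*, a transcriptional cofactor, fell in HCC4006 by 0.85 and was at 0.74 in ABC1, a difference of -1.59 (SE 0.13, adjusted p = 0.0142, limma) that passed in 9 of 12 alternatives. *NET1*, an exchange factor of RhoA, fell by 1.17 and was at 0.42 in ABC1, a difference of -1.59 (SE 0.15, adjusted p = 0.0172, limma) (7 of 12). *PTGS2*, at 11.6 to 17.6 FPKM in ABC1, differed by -1.99 (SE 0.29, adjusted p = 0.0388, limma) (3 of 12). *DKK1*, at 3.45 to 3.74 FPKM in ABC1, differed by -1.64 (SE 0.17, adjusted p = 0.0172, limma) (6 of 12). *CYP24A1*, *CX3CL1*, *KIT*, *CCL2* and *SPTSSB* differed too, by -2.19, -1.91, -2.03, -1.52 and -1.51, but each stayed under 1 FPKM in all ABC1 libraries. *CDKN1A*, which was not called in HCC4006, was at 1.22 in ABC1 and differed by -1.19 (SE 0.16, adjusted p = 0.0357, limma), passing in 2 of 12 alternatives. Against 0.636% of all genes, differences passed for 2 of 107 genes of the antioxidant lists and 3 of 229 of the replication and cell cycle lists. In the ATF4 and amino acid lists they passed for 3 of 69. All 3 shares lay above that of all genes, and a difference that misses the threshold does not show equal responses. *HMOX1* differed by -0.10, with an interaction standard error of 0.14.

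**Figure D5:**
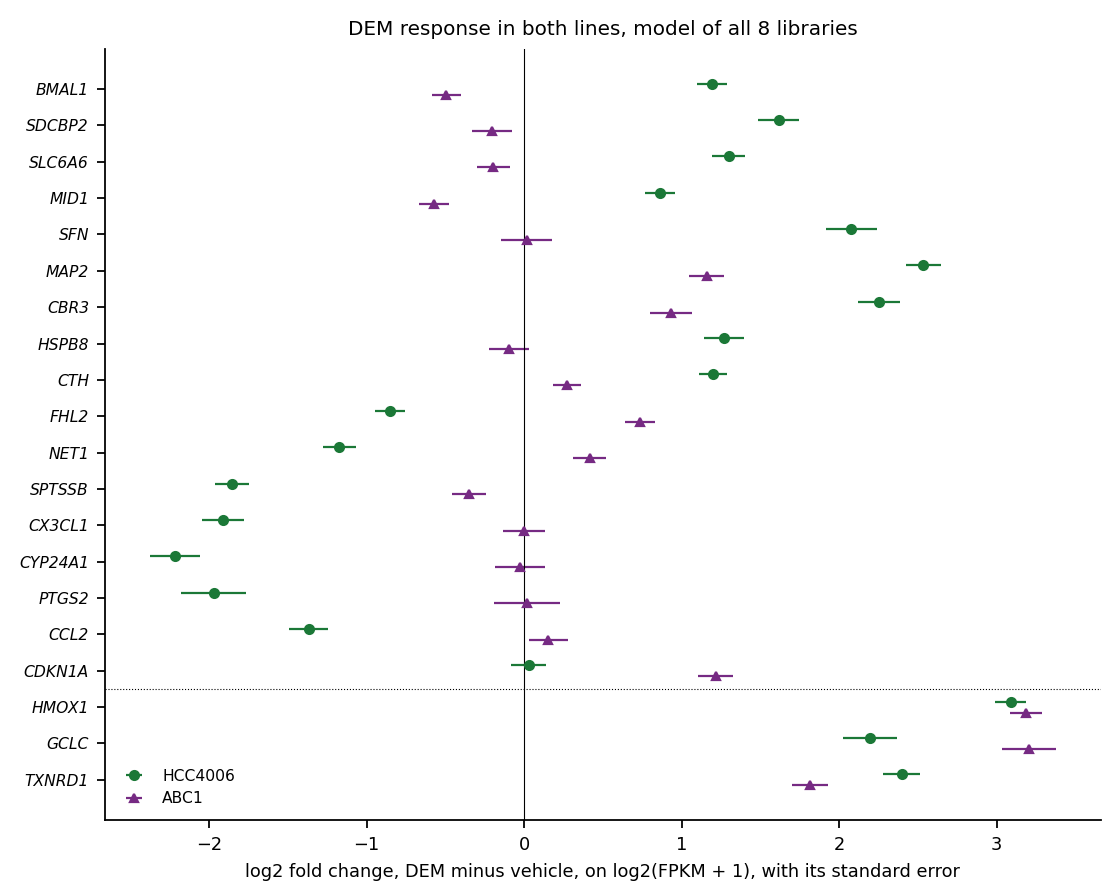
Log2 change of each gene in HCC4006 (green circles) and ABC1 (purple triangles) from the limma model of all 8 libraries, with its standard error. Above the dotted line are genes whose responses differed between the lines, such as *BMAL1* (1.19 and -0.49) and *FHL2* (-0.85 and 0.74), and below it 3 antioxidant genes whose difference was not called, *HMOX1*, *GCLC* and *TXNRD1*.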

How the data were processed

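RNA was prepared with poly(A) selection and a strand-specific kit. The submitters' processing notes name bcl2fastq 2.15.0, cutadapt 1.15, STAR 2.5.3a, SAMtools, Cuffnorm, HTSeq, DESeq2 and R 3.2.0, whereas the study's methods name TopHat and Cufflinks on hg19, so the aligner of these values is uncertain. The authors deposited FPKM per gene and library, that is read counts divided by transcript length and by the library's total, on GRCh37, and this division lets a few very abundant transcripts lower all others of a library. They also deposited, per line, a table with the signal of each gene averaged over libraries (the base mean, a normalised count), which was used only to mark genes with few reads, and columns of fold changes and p-values from their own comparisons, which were not used.

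Genes that averaged 1 FPKM or more over the 4 HCC4006 libraries were fitted on log2(FPKM + 1) with limma 3.58.1 in R 4.3.3, 1 mean per treatment and a mean-variance trend. p-values were adjusted by Benjamini-Hochberg over all 13542 genes, and the threshold was 0.05. The difference between the lines was the interaction term over all 8 libraries. Intervals are limma's 95% intervals, not adjusted for the number of genes. The fit was tested on simulated data. Figures were drawn with matplotlib 3.10.9. Alternatives were a pseudocount of 0.1, no minimum, a minimum of 5 FPKM, scaling by the median of ratios, no trend, the model of all 8 libraries, the replicate number as a block, and each library left out.

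The members and the 58 gene lists were chosen with earlier results of these data known, so they are no independent evidence. The genes named are the 15 with the largest change per direction that have a symbol, up to 6 called members per direction and 3 uncalled members of each list, a set of pathway genes, the 8 leading genes per direction outside the lists, the 5 per direction that differed most clearly from ABC1, and 4 genes at the minimum. Features with few reads were left out, and exceptions are stated. A few genes that the rule names are not reported here. Of the identifiers, 55534 had a symbol.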

Additional observations from a re-analysis of the deposited data

Results flagged for a closer look

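The response to DEM differed between HCC4006 and ABC1 by the interaction test of limma for 29 of the genes named above (adjusted p under 0.05 over 13682 genes). Values are the HCC4006 minus the ABC1 change on the log2 scale. Among genes that averaged 1 FPKM or more in ABC1, the change was higher in HCC4006 for *SFN* (2.062), *SDCBP2* (1.82), *BMAL1* (1.688), *SLC6A6* (1.494), *MID1* (1.435), *MAP2* (1.377), *CBR3* (1.32), *UPP1* (1.116), *PIR* (1.093) and *CTH* (0.9219). It was lower for *PTGS2* (-1.99), *DKK1* (-1.64), *NET1* (-1.588), *FHL2* (-1.587), *ITGA2* (-1.274), *CDKN1A* (-1.188) and *AURKB* (-1.053).

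The other genes had a mean under 1 FPKM in ABC1. Of these *CYP4F11* (1.507) and *HSPB8* (1.367) had the higher change in HCC4006. The lower changes were those of *CYP24A1* (-2.19), *KIT* (-2.034), *CX3CL1* (-1.91), *SLCO2A1* (-1.584), *CCL2* (-1.52), *SPTSSB* (-1.505), *HAS3* (-1.323), *MX2* (-1.238), *TGFB2* (-1.226) and *SLC34A2* (-1.115). *BMAL1* passed in 10 of 12 alternatives, *FHL2* in 9 and *NET1* in 7, while the others passed in 2 to 6.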

How the results depend on the processing

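When 1 library was left out, with the lone library of its group assumed to vary like the other group, upregulated genes numbered 206 to 324 (1144 with all libraries), downregulated genes 255 to 366 (1447) and genes that differed between the lines 3 to 36 (87). No gene called with all 4 libraries changed sign in any alternative. Without a minimum on FPKM, 30580 genes were tested and 177 upregulated and 193 downregulated genes were called, of which 111 and 98 were shared with those reported; the cause was not tested. A minimum of 5 FPKM (1156 and 1412), a pseudocount of 0.1 (1159 and 1456), scaling by the median of ratios (1279 and 1240), no trend (817 and 998) and the model of all 8 libraries (795 and 990) kept these counts within 1.5 times. For the difference between the lines a pseudocount of 0.1 left 20 genes, scaling by the median of ratios gave 102 and no trend 118.

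Across all genes the deviations of same-numbered libraries of HCC4006 were hardly correlated (0.0544 over 2 pairs), and the numbers were not taken as pairs. A correlation over all genes cannot show whether some genes shared an effect of the number. With a replicate block the counts were 1457 upregulated and 1847 downregulated genes, and 13 genes differed between the lines.

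The list medians changed sign beyond their spread in 2 cases: hypoxia targets went from 0.04 to -0.02262 without a minimum and circadian genes from -0.17 to 0.09057 with a minimum of 5 FPKM. The cause was not tested. Of 58 lists under 11 alternatives, 531 medians stayed within the spread between libraries and 105 moved beyond it. The depth of the libraries was not given, which leaves the precision of low FPKM values unknown, and the smallest called log2 change was 0.46 among genes under 5 FPKM and 0.22 at 20 FPKM and above.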

Other observations

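Globin transcripts, which these epithelial cells should lack, were listed above 0 in some of the libraries. *HBB* stood at 3.02 FPKM in vehicle replicate 1 and 1.89 FPKM in DEM replicate 1 and was listed at 0 in both libraries numbered 0. *HBA2* followed the same order at lower values, 0.538 and 0.171 FPKM against 0 and 0. *HBA1*, in contrast, was listed at 0.184 FPKM in both vehicle libraries and at 0 in both DEM libraries. *HBB* was not called, and no cause was tested.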
